A study of Danio rerio with 4 samples.

Results

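The genes that copy and repair DNA were compared between uhrf1 mutant and wildtype zebrafish larvae on 1-colour Affymetrix Zebrafish Genome Arrays. A probe set was taken as a member when the platform annotation gave it exactly 1 gene symbol and that symbol began with the name of a replication or repair family, such as pola, pold, pole, rfc, pcna, rpa, orc, rrm, top2, msh, ercc, xrcc, rad or fanc. The rule used names only and no measured value. It found 81 probe sets of 68 genes among 15502 probe sets tested, and 61 of the genes had 1 probe set each. The whole larva was the sample, 120 hours after fertilization, with 2 uhrf1 mutant arrays (replicates 1 and 2) and 2 wildtype arrays (replicates 1 and 3).

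The labels call the mutant group by phenotype only. Their growth protocol says that most of the study's experiments used offspring of heterozygous carriers of the uhrf1hi272 allele, and no other allele or treatment is named for these 4 samples. The same protocol mentions a transgenic line that carries human UHRF1 fused to GFP under fabp10, but the sample labels do not name it. Whether an array held 1 larva or a pool, and whether replicates came from separate clutches, is not stated in the labels. The p-values therefore reflect the spread of these samples alone, and it may be technical.

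Replication starts at origins bound by the origin recognition complex. Primase and polymerase alpha lay down primers, and polymerases delta and epsilon extend them while held on DNA by the PCNA clamp, which the RFC complex loads. RPA covers single-stranded DNA, FEN1 and DNA ligase 1 join the lagging-strand pieces, and mismatch, excision and strand-break repair mend errors and lesions. UHRF1 works at the same forks: it binds hemimethylated DNA behind them and brings DNMT1 there. In larvae of this age such genes are known to be used most in tissues that still grow, such as the retinal margin, the gut and the blood-forming organs.

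None of these replication and repair genes passed the test. By limma, with p-values adjusted by the Benjamini-Hochberg method over all 15502 probe sets, 0 of 81 member probe sets had an adjusted p under 0.05, against 1.50% of all probe sets. The smallest adjusted p among members was 0.23. Without adjustment, 7 of 81 members (8.64%) had a limma p under 0.05, against 11.9% of all probe sets. In mutants 4 of them were higher, against 5.10% of all probe sets, and 3 lower, against 6.84%.

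The changes were small in size as well. On the log2(intensity + 1) scale, member changes ran from -0.59 to 0.53, mutant minus wildtype, with a median of -0.0050. The median over all probe sets was -0.045. Of the 81 values 40 lay above 0 (49.4%), against 39.9% of all probe sets. The smallest absolute change that the test called in any probe set of the array was 0.84, so every member lay below the sizes called here.

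For the brighter members the 95% intervals limited the change on the scale of the deposited values. Of the 63 members above the dimmest 25% of the array, 59 had an interval inside -1 to 1, which is less than a doubling or a halving. All 18 dimmer members had one too, but their changes are compressed near background, so their intervals set little limit. Together these were 77 of 81, against 91.3% of all probe sets. The 4 exceptions were apex1, parp12b, rfc1 and the top2b probe set Dr.23837.1.A1_s_at, whose intervals reached -1.005, 1.12, 1.04 and 1.13. The median standard error of the members was 0.15 on the log2 scale. Their unadjusted intervals excluded 0 for 7 of 81, against 1850 of all 15502 probe sets. With 2 arrays a group, no member change passed after adjustment over all probe sets. In whole larvae, fewer cells of a dividing type and less RNA per cell cannot be told apart.

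**Figure D1:**
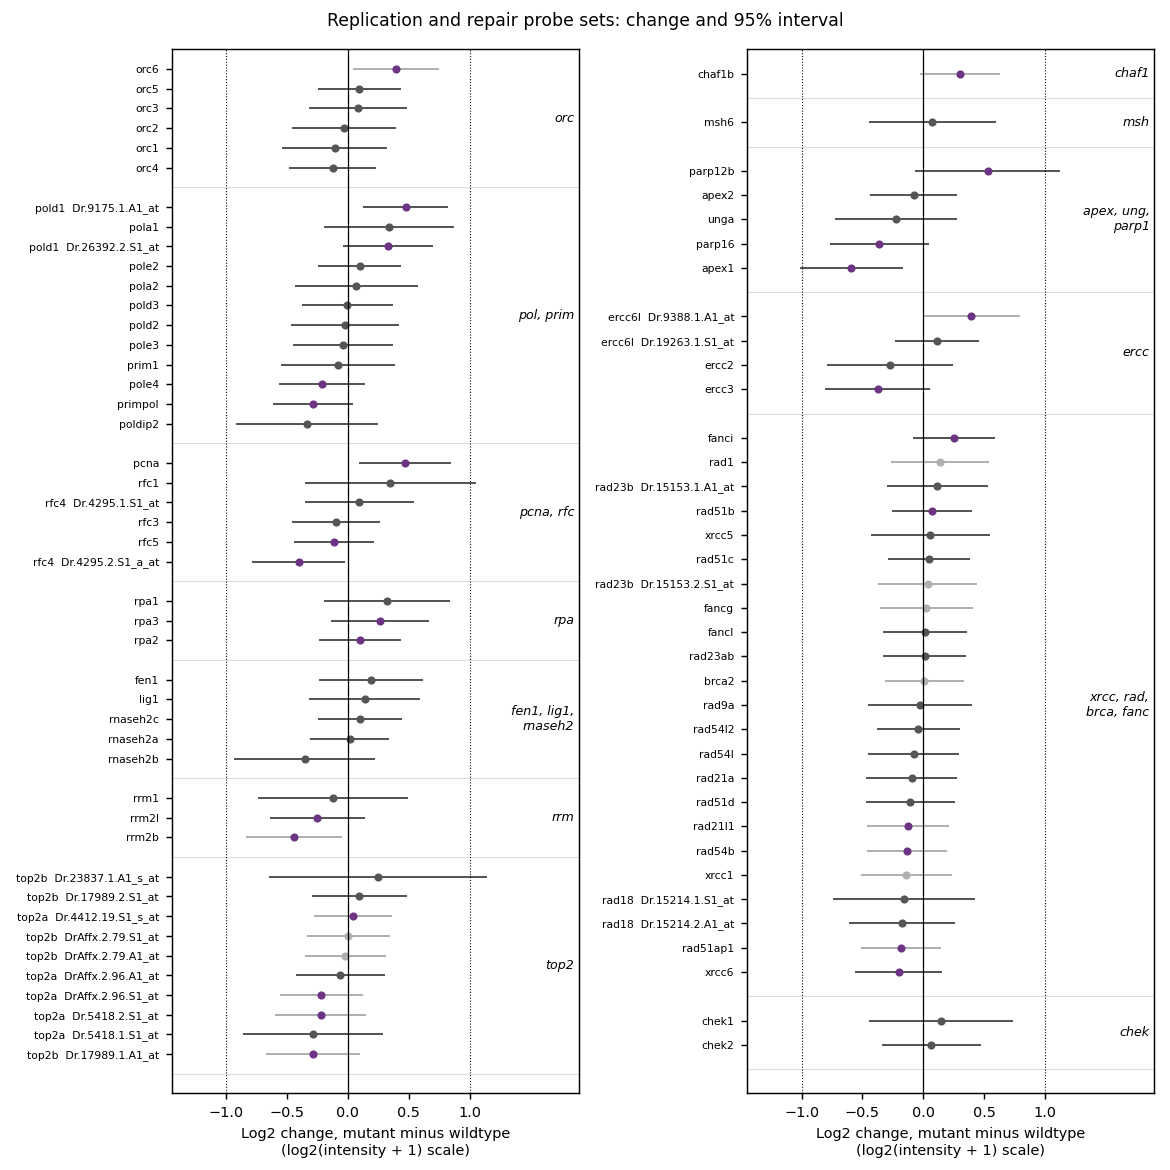
Log2 change of each of the 81 member probe sets, mutant minus wildtype, with its 95% interval from the limma fit, grouped by the gene name prefixes at the right. Purple points mark probe sets without overlap between the groups, pale intervals mark probe sets under the bound of the dimmest 25%, and dotted lines stand at -1 and 1. The points run from -0.59 for apex1 to 0.53 for parp12b.

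Arrays of the 2 groups did not overlap for 28 member probe sets (34.6%), against 41.3% of all probe sets. In 12 of them both mutant arrays were higher (14.8%), against 14.9% of all probe sets, and in 16 both were lower (19.8%), against 26.3%. These shares lie near or below those of the whole array.

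The intensities themselves are the authors' RMA values, summarised per probe set and deposited on a linear scale. They carry no detection call, and 18 of the 81 member probe sets had a mean under 12.7, the bound of the dimmest 25% of the array. The remaining 63 lay between 14.6 and 1130. RMA compresses changes near background, so a fold of a dim probe set is understated.

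Among the origin recognition genes, which mark where replication begins, 0 of 6 passed the test. The subunit gene orc6 had the highest change, with 13.2 and 12.4 in mutants and 8.86 and 10.2 in wildtype larvae. Both mutant arrays lay above both wildtype arrays, but all these values sit under the 12.7 that bounds the dimmest probe sets, or close to it. The change was 0.39 ± 0.14 (SE, log2) with an adjusted p of 0.34 by limma. The lowest was orc4, with 54.8 and 63.2 in mutants and 62.6 and 66.1 in wildtype larvae, where the groups overlapped. For orc1, orc2, orc3 and orc5 the log2 changes were -0.11, -0.034, 0.081 and 0.095, and their groups overlapped too.

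In the polymerase and primase genes 0 of 12 probe sets passed, and the median log2 change was -0.015. The catalytic subunit gene of polymerase delta, pold1, was the highest of them. Its probe set Dr.9175.1.A1_at read 104 and 91.7 in mutants and 72.1 and 68.0 in wildtype larvae, a ratio of means of 1.40. Both mutant arrays were above both wildtype arrays, with a log2 change of 0.47 ± 0.14 (SE), a limma p of 0.015 and an adjusted p of 0.24. Its other probe set, Dr.26392.2.S1_at, read 19.7 and 21.1 against 17.5 and 14.7, and its change of 0.33 ± 0.15 (SE, log2) had the same sign and no overlap. Both probe sets measure the same RNA, so they are not independent evidence.

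The accessory subunit genes of polymerase delta lay near 0. For pold2 and pold3 the log2 changes were -0.025 and -0.0050, with overlapping groups. The polymerase alpha genes pola1 and pola2, which extend the RNA primer, changed by 0.34 ± 0.22 and 0.069 ± 0.20 (SE, log2). The primase subunit gene prim1 changed by -0.082. Of the polymerase epsilon genes, pole2 and pole3 changed by 0.097 and -0.043.

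The small epsilon subunit gene pole4 had the brightest probe set of the group, with 88.4 and 100.9 in mutants and 112 and 107 in wildtype larvae. Both mutant arrays were lower, by -0.21 ± 0.14 on the log2 scale (SE), with an adjusted p of 0.65 by limma. The repriming enzyme gene primpol was also lower without overlap, at 19.1 and 18.7 against 24.0 and 22.6. The lowest change of the group belonged to poldip2, which encodes a protein that binds polymerase delta and is also known in mitochondria. It read 68.2 and 72.7 in mutants and 70.2 and 113 in wildtype larvae, so that 1 wildtype array set its change of -0.34 ± 0.24 (SE, log2).

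The clamp gene pcna separated the groups without passing the test. PCNA encircles DNA and docks polymerases, FEN1, ligase 1 and the CAF-1 histone chaperone. Its probe set read 1388 and 1234 in mutants and 1023 and 877 in wildtype larvae, with means of 1311 ± 108 and 950 ± 103 (SD, n = 2 each) and a ratio of 1.38. Both mutant arrays were above both wildtype arrays. The log2 change of 0.47 ± 0.15 (SE), with a 95% interval from 0.098 to 0.83, had an unadjusted limma p of 0.021 and an adjusted p of 0.29.

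The genes of the clamp loader RFC lay on both sides of 0. For rfc3 and rfc5 the changes were -0.098 and -0.12 on the log2 scale, and rfc1 changed by 0.35 ± 0.28 (SE) because mutant replicate 1 read 77.1 and the other 3 arrays 41.0 to 48.8. The gene rfc4 had a probe set of each sign. Probe set Dr.4295.1.S1_at read 140 and 108 in mutants and 125 and 106 in wildtype larvae, with overlapping groups and a change of 0.093 ± 0.18 (SE, log2). Probe set Dr.4295.2.S1_a_at read 39.4 and 47.4 against 60.3 and 54.8, lower in both mutants, at -0.40 ± 0.15 (SE, log2) with an unadjusted limma p of 0.039 and an adjusted p of 0.37.

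**Figure D2:**
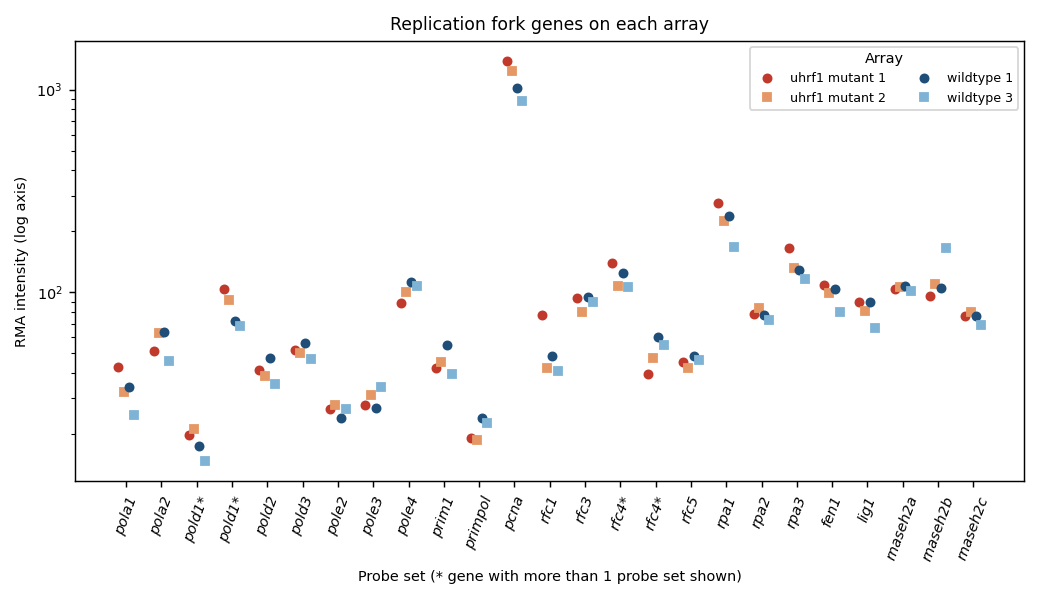
RMA intensity (log axis) of the 25 probe sets of polymerase, primase, clamp, clamp loader, RPA, FEN1, ligase 1 and RNase H2 genes on each of the 4 arrays. Levels of different probe sets cannot be compared with each other. In pcna and pold1 both mutant arrays lie above both wildtype arrays, and in 17 of the 25 probe sets wildtype replicate 3 is the lowest of the 4.

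All 3 genes of RPA, the single-strand binding complex, had changes above 0, and 0 of 3 passed. The large subunit gene rpa1 read 276 and 225 in mutants and 237 and 168 in wildtype larvae. The groups overlapped, and the change was 0.32 ± 0.21 (SE, log2) with a limma adjusted p of 0.65. It was 0.073 without wildtype replicate 3 and 0.57 without wildtype replicate 1. For rpa2 the arrays were 77.9 and 83.7 against 77.4 and 73.3, higher in both mutants by a narrow margin, with a change of 0.099 ± 0.13 (SE, log2). The small subunit gene rpa3 was higher in both mutants as well, at 165 and 133 against 130 and 117.

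Of the genes that finish lagging-strand pieces 0 of 5 passed, with a median log2 change of 0.0997. The flap endonuclease gene fen1 read 109 and 99.8 in mutants and 104 and 79.9 in wildtype larvae, a change of 0.19 ± 0.17 (SE, log2). The ligase gene lig1 changed by 0.14 ± 0.18 (SE, log2), and in both genes wildtype replicate 3 was the lowest array. RNase H2 removes ribonucleotides from DNA. Its genes rnaseh2a and rnaseh2c changed by 0.014 and 0.0997, while rnaseh2b read 96.0 and 110 in mutants and 105 and 166 in wildtype larvae, a change of -0.36 ± 0.23 (SE, log2) that again turned on wildtype replicate 3.

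Ribonucleotide reductase makes the deoxynucleotides used in DNA synthesis, and all 3 of its genes had changes below 0, with 0 of 3 passing. The gene rrm2b, whose human counterpart is a p53 target, read 10.5 and 8.37 in mutants and 13.8 and 12.4 in wildtype larvae. Both mutant arrays were lower, with a change of -0.44 ± 0.16 (SE, log2), an unadjusted limma p of 0.031 and an adjusted p of 0.34, and the mean was below that bound. The rrm2-like gene rrm2l read 191 and 156 against 215 and 197, a change of -0.25 ± 0.16 (SE, log2) without overlap. The large subunit gene rrm1 read 189.7 and 115 against 173 and 150.4, where the mutant arrays lay on both sides of the wildtype ones.

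Type II topoisomerases untangle DNA, top2a in dividing cells and top2b in resting cells such as neurons. Each gene had 5 probe sets, 0 of 10 passed, and 6 of the 10 were dim. For top2a the 5 log2 changes were 0.040, -0.29, -0.23, -0.062 and -0.22. The probe set with the largest of these, Dr.5418.1.S1_at, read 22.04 and 22.4 in mutants and 34.7 and 21.4 in wildtype larvae, so wildtype replicate 1 alone stood above the rest. Probe set Dr.4412.19.S1_s_at read 10.7 and 10.8 against 10.6 and 10.2, no overlap but a change of only 0.040 ± 0.13 (SE). DrAffx.2.96.S1_at read 9.25 and 10.2 against 11.8 and 11.1, and Dr.5418.2.S1_at read 10.3 and 11.7 against 12.1 and 14.0. Both were lower in both mutants, while DrAffx.2.96.A1_at, at 17.5 and 19.7 against 20.9 and 18.0, overlapped.

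For top2b the 5 log2 changes ran from -0.29 to 0.25. The brightest probe set, Dr.23837.1.A1_s_at, read 84.8 and 40.0 in mutants and 58.6 and 40.9 in wildtype larvae, with a standard error of 0.36 that was the largest of all members. Probe set Dr.17989.1.A1_at was lower in both mutants, at 8.74 and 10.2 against 10.8 and 12.8. The other 3 overlapped. Dr.17989.2.S1_at read 19.7 and 22.97 against 21.5 and 18.3, DrAffx.2.79.A1_at 8.72 and 9.62 against 9.35 and 9.31, and DrAffx.2.79.S1_at 8.33 and 8.42 against 7.83 and 8.91. Their log2 changes were 0.094, -0.024 and 0.0033. Some of these probe sets may read other transcripts or the opposite strand, which was not tested.

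**Figure D3:**
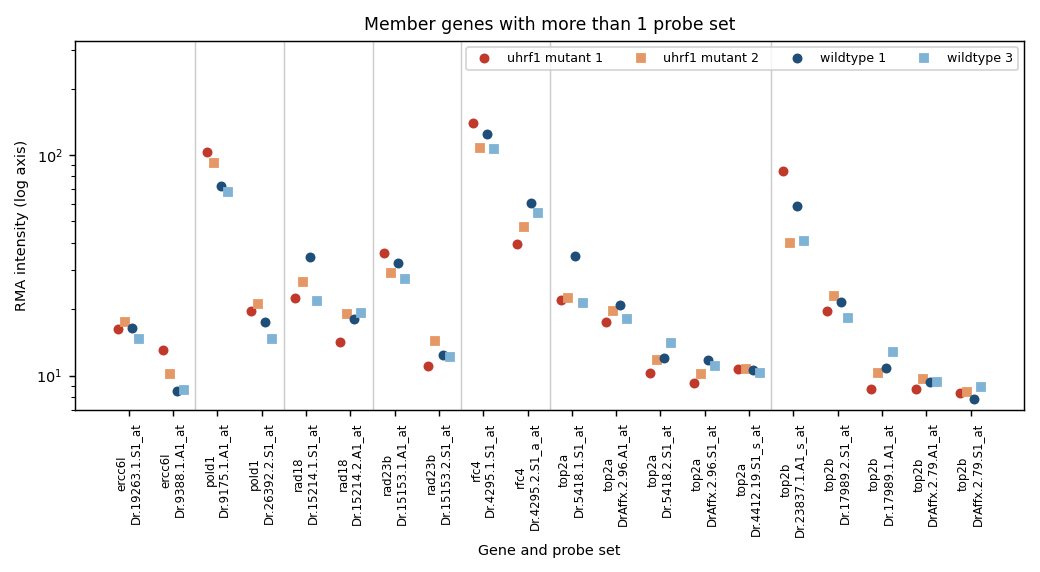
RMA intensity (log axis) on each array for the 20 probe sets of the 7 member genes that had more than 1. The 2 probe sets of pold1 separate the groups the same way, those of rfc4 do not, and the probe sets of top2a and top2b lie on both sides.

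Chromatin assembly behind the fork was represented by chaf1b alone, the middle subunit gene of the CAF-1 histone chaperone. It read 13.2 and 12.6 in mutants and 10.5 and 9.94 in wildtype larvae. Both mutant arrays were higher, with a change of 0.30 ± 0.13 (SE, log2) and a limma adjusted p of 0.44, below the same bound. Mismatch repair was represented by msh6 alone, whose product finds mispaired bases, at 21.4 and 25.3 against 26.7 and 18.1 with the groups overlapping.

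Base excision repair held the lowest change of any member. APEX1 cuts the backbone at sites where a damaged base has been removed. Its gene apex1 read 146 and 143 in mutants and 190 and 249 in wildtype larvae, with means of 144 ± 2.31 and 219.8 ± 41.6 (SD, n = 2 each). Both mutant arrays were below both wildtype arrays, and the wildtype mean was 1.52 times the mutant mean. The log2 change was -0.59 ± 0.17 (SE). Its unadjusted limma p was 0.013, and its adjusted p of 0.23 was the smallest of the members. Wildtype replicate 3 held the highest value.

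Other genes of this repair route had smaller changes. The paralogue apex2 changed by -0.078 ± 0.14, and unga, a uracil-DNA glycosylase gene, by -0.23 ± 0.20 (SE, log2). The scaffold gene xrcc1 read under 10 on all 4 arrays. The rule's prefix parp1 matched no parp1 probe set but caught parp12b and parp16, which encode ADP-ribosyltransferases that are not known as base excision factors. The highest change of all members was that of parp12b, at 53.9 and 44.7 in mutants and 42.6 and 26.6 in wildtype larvae, 0.53 ± 0.24 (SE, log2) with a limma adjusted p of 0.47. That change was 0.20 without wildtype replicate 3 and 0.86 without wildtype replicate 1. Human PARP12 is known as an interferon-stimulated gene. All 10 measured genes of an interferon list had changes above 0 in these mutants. Of these 7 passed by limma, all higher, against 131 higher of all 15502 probe sets. The summed intensity of that list was 3550 and 4265 on the mutant arrays and 236 and 185 on the wildtype arrays. Most of the mutant sums came from isg15 (1259 and 1855), irf1b (996 and 957) and b2m (640 and 662). The gene mxa was dim and overlapped between the groups, with a log2 change of 0.098. The list's part in the parp12b value was not tested.

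Nucleotide excision repair genes did not pass either. The TFIIH helicase genes ercc2 and ercc3 changed by -0.27 ± 0.21 and -0.37 ± 0.17 (SE, log2). For ercc3 the mutant arrays, 38.1 and 38.5, lay below the wildtype arrays, 57.7 and 43.1, with an adjusted p of 0.48 by limma. The lesion-recognition genes rad23ab and rad23b changed by 0.011, 0.12 and 0.036 over their 3 probe sets. The prefix ercc also caught ercc6l, a translocase of mitotic chromosomes, whose probe set Dr.9388.1.A1_at read 13.1 and 10.2 against 8.54 and 8.60. That change was 0.40 ± 0.16 (SE, log2) with an unadjusted limma p of 0.048 and an adjusted p of 0.41. The mean of this probe set was below the bound of dim probe sets. The gene's other, brighter probe set changed by 0.11, with the groups overlapping.

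The strand-break repair group, formed by the prefixes xrcc, rad, brca and fanc, was the largest. By its prefixes it also held xrcc1, rad23ab, rad23b, rad1 and rad9a, which are described here under other routes. Of its 23 probe sets 0 passed, also at an unadjusted p under 0.05. Their log2 changes lay between -0.20 and 0.25 with a median of -0.026, and 8 of them were dim. The highest was fanci, a partner of FANCD2 in crosslink repair, at 28.6 and 26.2 in mutants and 23.3 and 22.2 in wildtype larvae, 0.25 ± 0.13 (SE, log2). The lowest was xrcc6, the Ku70 gene of end joining, at 84.4 and 73.3 against 93.7 and 87.8, -0.20 ± 0.14 (SE, log2). Neither pair of groups overlapped, and by limma the adjusted p was 0.55 for fanci and 0.68 for xrcc6.

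The Ku80 gene xrcc5, whose product pairs with Ku70, read 93.8 and 134 in mutants and 111 and 105 in wildtype larvae, with overlap. The homologous recombination genes rad51b, rad51c and rad51d changed by 0.072, 0.048 and -0.11. The DNA translocase genes rad54l and rad54b changed by -0.080 and -0.14, and rad51ap1 by -0.18. The crosslink repair genes fancg and fancl changed by 0.026 and 0.014. The gene brca2, which acts in homologous recombination, read between 7.18 and 7.43 on all 4 arrays, well below the bound of dim probe sets, so its values set no useful limit on a change.

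The remaining members of these prefixes lay near 0. The cohesin gene rad21a, the brightest of the strand-break group, read 340.2 and 408 in mutants and 397 and 400 in wildtype larvae, and its meiotic relative rad21l1 was dim at 5.89 to 6.94. The ubiquitin ligase gene rad18, which marks PCNA at stalled forks, changed by -0.16 and -0.17 in its 2 probe sets. The helicase gene rad54l2 changed by -0.043. Checkpoint genes overlapped throughout: the checkpoint clamp genes rad1 and rad9a changed by 0.14 and -0.026.

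The checkpoint kinases relay fork stalling and breaks to the cell cycle. For chek1 the arrays read 15.7 and 22.8 in mutants and 20.3 and 14.3 in wildtype larvae. For chek2 they read 54.8 and 53.3 against 58.3 and 45.5. The changes, 0.15 ± 0.24 and 0.067 ± 0.16 (SE, log2), were smaller than their standard errors.

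Single arrays of a group differed among the members by about as much as on the whole array. The median absolute log2 difference of the 81 members was 0.18 between the wildtype arrays and 0.17 between the mutant arrays, against 0.16 and 0.17 for all probe sets. Between the means of the groups, each over 2 arrays, it was 0.12 for the members and 0.14 for all probe sets. In the wildtype pair the differences ran mostly one way. Wildtype replicate 1 was above replicate 3 for 61 of 81 members (75.3%), against 58.0% of all probe sets. Of the 9702 probe sets in the middle 80% of the members' intensity range it was above in 5734.

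The fork genes shared this difference. The 25 probe sets of polymerases, primase, clamp, clamp loader, RPA, FEN1, ligase 1 and RNase H2, a subset chosen after their values were seen and without poldip2, were higher in wildtype replicate 1 than in replicate 3 in 22 cases (88.0%). Their median difference between these arrays was 0.16 on the log2 scale, against 0.044 for all probe sets. The 63 members above the dimmest 25%, which include these 25, had the same median of 0.16, with 50 of 63 (79.4%) higher in wildtype replicate 1. Among lists of genes that are no members this median ran from -0.36 in the exocrine pancreas list to 0.44 in the interferon list. It was 0.011 in the helicase and origin-firing list and 0.050 in the proliferation list. Lists of nucleotide supply, further repair genes and methylation at the fork had 0.12, 0.16 and 0.19. In the blood progenitor, muscle and neuron lists it was 0.16, 0.16 and 0.21. Between the means of the groups, each over 2 arrays, the median change of the fork genes was 0.093, against -0.045 for all probe sets. Wildtype replicate 3 was the lowest of the 4 arrays for 17 of the 25 (68.0%), against 23.4% of all probe sets. These are descriptions of single arrays, with no test.

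**Figure D4:**
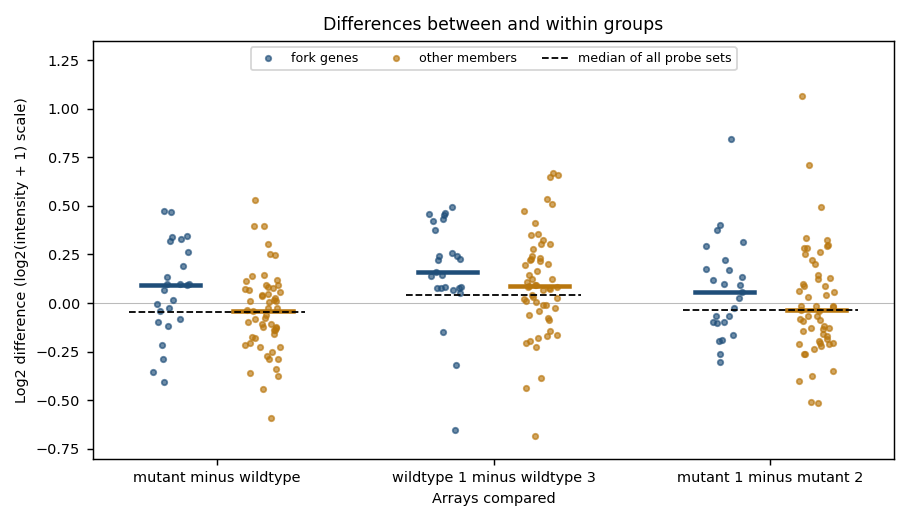
Log2 differences of member probe sets between the groups (left), between the wildtype arrays (middle) and between the mutant arrays (right). Blue points are the 25 fork probe sets and orange points the other 56, thick bars are their medians and dashed lines the median of all probe sets. The fork genes lie mostly above 0 in the wildtype pair, with a median of 0.16, and at 0.093 between the groups.

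The sign of the fork genes' median therefore turned on a single wildtype array. The median stayed above that of all probe sets, which carries no weight because the subset was chosen after its values were seen. Leaving out wildtype replicate 1 gave 0.18, against -0.022 for all probe sets. Leaving out wildtype replicate 3 gave -0.021, against -0.065. Leaving out mutant replicate 1 or 2 gave 0.040 or 0.048, against -0.032 or -0.069. The other 56 members had a median of -0.039 on all arrays, against -0.045 for all probe sets. Their median was 0.033 without wildtype replicate 1 and -0.10 without wildtype replicate 3, against -0.022 and -0.065. Without mutant replicate 1 or 2 it was -0.0029 or -0.085, against -0.032 or -0.069. For all 81 members the median was 0.048 without wildtype replicate 1, against -0.022 for all probe sets. It was -0.079 without wildtype replicate 3, against -0.065. Not one member was called with any 1 array left out.

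**Figure D5:**
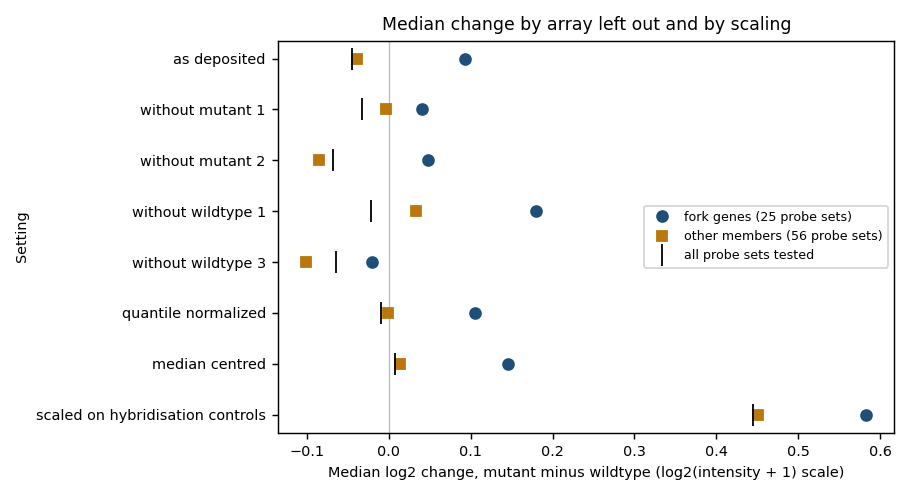
Median log2 change, mutant minus wildtype, of the 25 fork probe sets (blue), the other 56 members (orange) and all probe sets tested (black ticks), for each array left out and each scaling. The blue points move between -0.021 and 0.18 with the wildtype array left out, and all 3 medians move up together when the arrays are scaled on the hybridisation controls.

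The scale of the arrays matters more than any of these. The 18 hybridisation control probe sets, which measure transcripts added in fixed amounts, had a mean log2 difference of -0.49, mutant minus wildtype. Single control probe sets ran from -0.82 to -0.057. Scaled on them, 32 of 81 members (39.5%) had a limma adjusted p under 0.05, all higher in mutants, against 33.1% of all probe sets that were called higher. The members' median became 0.48, and that of all probe sets 0.45. Member changes are therefore read beside those of all probe sets.

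Other genes of the pathway gave few calls. Of 19 measured helicase and origin-firing genes 0 passed by limma, with a median of 0.079, and 4 were higher at an unadjusted p under 0.05, against 5.10% of all probe sets. These 4 were the helicase genes mcm2, mcm3, mcm4 and mcm5, with log2 changes of 0.72, 0.89, 0.62 and 0.57 and adjusted p-values of 0.20, 0.25, 0.18 and 0.15. The 2 other measured subunit genes of the same ring had values below 0, with mcm6 at -0.11 and mcm7 at -0.33, and the difference among subunits was not tested. In the nucleotide supply list 1 of 13 genes passed, the nucleoside diphosphate kinase gene nme2a, which fell by 1.28 on the log2 scale with an adjusted p of 0.023. The dUTPase gene dut and the purine synthesis gene paics changed by 0.49 and 0.54 without passing.

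Of 11 genes that work with methylation at the fork 0 passed by limma. Before adjustment 1 of them (9.09%) had a limma p under 0.05, against 11.9% of all probe sets. This was cdca7a, at 0.70 ± 0.17 (SE, log2). The maintenance methyltransferase gene dnmt1 changed by 0.22 ± 0.23 (SE, log2). Of 36 further repair genes 0 passed, with a median of -0.10. At an unadjusted limma p under 0.05, 1 was higher and 2 lower, against 5.10% and 6.84% of all probe sets. The lowest, the damage-recognition gene ddb2, read 44.5 and 60.4 in mutants and 79.6 and 193 in wildtype larvae. In the list of p53 and its arrest targets 0 of 19 passed by limma, with a median of 0.37, and 9 were higher and none lower before adjustment at a p under 0.05, against 5.10% and 6.84% of all probe sets. Of 24 proliferation genes 0 passed, with a median of 0.012. At an unadjusted limma p under 0.05 only cdk1 was higher, at 0.32, against 5.10% of all probe sets.

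Some marker lists of other tissues differed between the groups on the same arrays. In the exocrine pancreas list 9 of 11 measured genes passed by limma, all lower, with a median of -3.31. In the enterocyte list 3 of 9 passed, all lower, and in the hepatocyte list 2 of 11 passed higher and 1 lower. Of all 15502 probe sets 131 passed higher and 102 lower. All 11 pancreas genes and all 9 enterocyte genes had changes below 0. In the retinal progenitor list 0 of 14 passed by limma, with a median of -0.53, and 8 were lower before adjustment at a p under 0.05, against 6.84% of all probe sets. Of the blood progenitor and thymus list 0 of 9 passed by limma, with a median of -0.13. Before adjustment 1 of them had a limma p under 0.05, against 11.9% of all probe sets. In the neuron, muscle and germ cell lists 0 of 9, 0 of 10 and 0 of 11 passed, with medians of -0.14, 0.20 and -0.15. Summed over the retinal list, the intensity was 935 and 771 on the mutant arrays and 936 and 1027 on the wildtype arrays. The cyclin gene ccnd1, the only one of the 14 with a change above 0, made up much of that sum. Without it, a step chosen after seeing the values, the sum over 13 genes was 437 and 400 against 595 and 634. The part of these tissues in the members' values was not tested. The uhrf1 probe set read 41.1 and 26.3 in mutants and 47.4 and 41.5 in wildtype larvae, and the labels do not say where it lies in the gene, so it is no check of the groups.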

How the data were processed

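The authors deposited linear-scale intensities per probe set for the 4 arrays. The submitters' processing notes name RMA as the tool. These notes give neither its version nor its settings, and there are no detection calls in the table. Age is taken as hours from the source label, although a treatment line of the labels has days. RMA is usually run with a step that brings arrays to 1 distribution. The notes do not say whether that step was used here, and the deposited array medians lay between 29.4 and 31.5. Of 15617 probe sets 115 array controls were left out. Annotation named 1 gene for 10795 of the rest, and updating symbols changed 0 member symbols.

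Mutant was tested against wildtype with limma 3.58.1 (R 4.3.3; lmFit, eBayes) on log2(intensity + 1), with Benjamini-Hochberg adjustment over 15502 probe sets. Residual degrees of freedom were 2 and prior ones 4.04. Limma p-values are two-sided and intervals are 95%. Precision is limited by the number of arrays. The script was tested on simulated data, where it called 0 of 50 changes of 0.5 and 13 of 50 changes of 1 on the log2 scale. Pathway and tissue lists use the probe set with the highest mean per gene.

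Named with values on every array were, in each of 13 groups of name prefixes, the highest and lowest change and the brightest probe set, and every probe set of a gene with changes of both signs. Beyond this rule, primpol, rpa3, xrcc5 and a further pold1 probe set were given with all values, chosen after these were seen. The members, lists and tests were chosen with earlier results of these data known. Promoter letters, which had been planned, were not analysed here.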

Additional observations from a re-analysis of the deposited data

How the results depend on the processing

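No member was called under quantile normalization, median centring, pseudocounts of 0 and 16, the filter on dim probe sets, the robust prior, 1 probe set per gene, an adjusted p under 0.10 or with any 1 array left out, while 0.516% to 3.20% of all probe sets were. The unmoderated linear model called 0 of all 15502 probe sets, so its 0 says nothing about the members. Updating symbols, or leaving out the 7 genes caught by their prefix but of another function (parp12b, parp16, ercc6l, rad54l2, poldip2, rad21a and rad21l1; these genes were listed after seeing the data), also gave 0. Scaling on the hybridisation controls gave 32 calls (39.5%), against 33.7% of all probe sets. An unadjusted p under 0.05 gave 7 (8.64%), against 11.9%. The members' median was 0.047 with median centring, 0.48 scaled on the controls and -0.079 to 0.048 with 1 array left out. It was 0.093 in the 25 fork probe sets, a subset added after seeing the data. With 1 array left out the lone array of a group is assumed to vary like the others. No paired analysis was possible because the groups share only replicate number 1.

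Of the 40 probe sets given with all their values, 16 were called when scaled on the controls, a setting that called 33.7% of all probe sets. The sign turned there for rfc4 (Dr.4295.2.S1_a_at, 0.086), ercc3 (0.12), rnaseh2b (0.13), orc4 (0.36), poldip2 (0.15), pole4 (0.28), primpol (0.20), rrm1 (0.37), rrm2b (0.045), rrm2l (0.24), rad21a (0.39), xrcc6 (0.29), top2a (0.20, 0.26, 0.43 and 0.27 in 4 probe sets) and top2b (0.20 and 0.47 in 2). The top2b probe set DrAffx.2.79.A1_at turned to 0.0096 with quantile normalization and 0.028 with median centring. Leaving out 1 array turned the sign of 14 probe sets, none past the threshold. They ran from -0.11 to 0.40 for chek1, -0.11 to 0.24 for chek2, -0.094 to 0.28 for rfc4 (Dr.4295.1.S1_at), -0.19 to 0.34 for msh6, -0.68 to 0.0053 for poldip2, -0.48 to 0.23 for rrm1, -0.20 to 0.32 for xrcc5 and -0.23 to 0.035 for rad21a. For top2a they ran from -0.62 to 0.048 and -0.16 to 0.038, and for top2b from -0.018 to 0.21, -0.28 to 0.78, -0.087 to 0.040 and -0.080 to 0.086. In 30 of the 40 probe sets, these 14 included, leaving out 1 array turned the sign or moved the change by over 1.5 times. The 10 others were apex1, chaf1b, pcna, orc6, rrm2b, fanci, primpol and 1 probe set each of pold1, rfc4 and top2a. The cause was not tested. The number of arrays and the dim level of 18 probe sets limit what these values can show.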
